A study of Drosophila melanogaster with 2 samples.

Results

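The genes described here build and control the mitotic spindle, the kinetochore, the condensed chromosome, the centrosome and the division furrow of Drosophila melanogaster. A list of 51 gene symbols was matched, upper and lower case included, to a table of nuclear RNA levels for 13623 genes, and 48 symbols were found. The other 3 stand in the table with another case and are given at the end of the account by role. The table came from 2 RNA-seq libraries, 1 of neural stem cell (NSC) nuclei and 1 of neuron nuclei. Nuclei were taken out of whole-embryo homogenates by INTACT, in which the nuclei of chosen cells carry a tag on their envelope that antibody-coated beads can hold.

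Both strains carried the transgene UAS-3xFLAG-blrp-mCherry-RanGap, whose product sits at the nuclear envelope and was bound by beads against FLAG. Its UAS answers to the yeast activator Gal4, so only cells in which the Gal4 driver was active were tagged. The NSC library came from embryos of the Sca-Gal4/cyo line with this transgene, aged 5 to 7 h after egg laying, a line kept over the CyO balancer chromosome. The neuron library came from embryos with Elav-Gal4 and the same transgene, aged 12 to 14 h. Embryo age and driver changed together with the cell type, so their parts in any difference cannot be told apart. Each group had 1 library, so every difference given is one between single libraries, with no replicate check and no test. The genes whose promoters drove the tag had the following levels: sca had 63.96 FPKM in NSCs against 4.72 FPKM in neurons, and elav had 46.5 and 77.0 FPKM.

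Levels are FPKM, fragments per kilobase of transcript and per 1000000 mapped fragments, so levels of different genes are compared per length. The change of a gene is log2((neuron FPKM + 1)/(NSC FPKM + 1)), negative where the neuron library was lower, and a change of 1 or more in size is called 2-fold. A total of 10158 genes had at least 1 FPKM in at least 1 library and were compared, among them all 48 members. From the steps between low values the depth was estimated at 65.1 M fragments (M, 1000000) for NSCs, and 69.3 M for neurons. The median gene of the table had 5.28 FPKM in NSCs against 8.76 FPKM in neurons, and the summed levels were 805334 and 669144 FPKM.

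Embryonic neural stem cells, or neuroblasts, divide asymmetrically many times, renewing themselves and giving off smaller daughters that divide again or differentiate, whereas neurons have left the cell cycle for good. Entry into mitosis requires kinases of the Aurora and Polo families, chromosome compaction by condensin and a bipolar spindle that grows from paired centrosomes. Kinetochores built on the centromere capture the spindle, a checkpoint holds the cell until every kinetochore is attached, and ubiquitin-dependent destruction of securin then lets the sister chromatids part before the cell is cleaved in the middle.

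Nearly all of these genes had less nuclear RNA in the neuron library. Of the 48 members, 41 (85.4%) were at least 2-fold lower in neurons and 0 were at least 2-fold higher, compared with 16.6% and 26.9% of all genes compared. In sign, 46 members were lower and 2, Cap-H2 and tacc, were higher. The median change of the members was -2.24 (quartiles -2.58 and -1.86), beside a median of 0.14 (quartiles -0.69 and 1.07) over all genes compared. A total of 31 members were at least 4-fold lower, 10 lay between 2-fold and 4-fold lower, and 7 stayed within 2-fold. Of all genes compared, 351 were at least 4-fold lower. By the change as defined, ial and sub were the 2 members past 8-fold. Without the added 1, the FPKM ratios of Ndc80 (8.58-fold) and Klp3A (8.31-fold) passed it too. In RNA pooled from many nuclei, fewer cells of a type and less RNA per cell cannot be told apart.

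**Figure D1:**
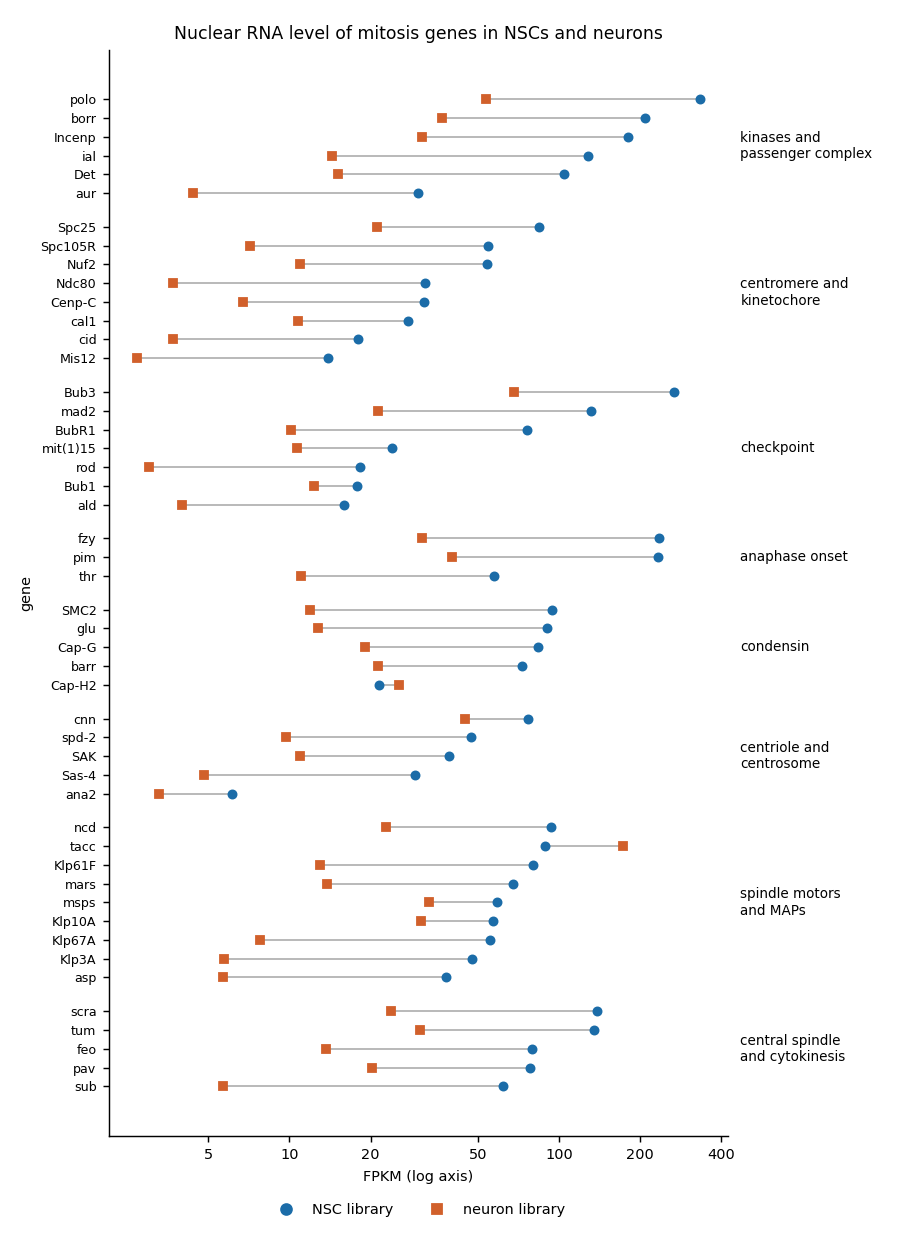
Nuclear RNA level of each of the 48 genes on a log axis of FPKM, with the NSC library as circles and the neuron library as squares joined by a line, grouped by role. In 46 genes the neuron square lies left of the NSC circle, and in Cap-H2 and tacc it lies to the right.

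Apart from Cap-H2 and tacc, the members stood at lower ranks in neurons, and none was near 0. In the NSC library the members ranged from 6.12 to 332.6 FPKM with a median of 64.9 FPKM, and all 48 lay above the median of the whole table. In the neuron library they ranged from 2.73 to 172 FPKM with a median of 12.9 FPKM, and 34 lay above the median of the whole table. Each of the 48 still had at least 1 FPKM there and 40 had at least 5 FPKM. The median percentile of the members among all genes of the table was 87.6 in NSCs and 57.3 in neurons, and 39 members lay above the upper quartile of the table in NSCs and 11 in neurons. Their summed level was 4015 FPKM, or 0.499% of all FPKM, in the NSC library and 997 FPKM, or 0.149%, in the neuron library. The neuron level was a median of 19.5% of the NSC level. It lay between 10% and 25% in 32 members, below 10% in 1 and above 50% in 7.

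**Figure D2:**
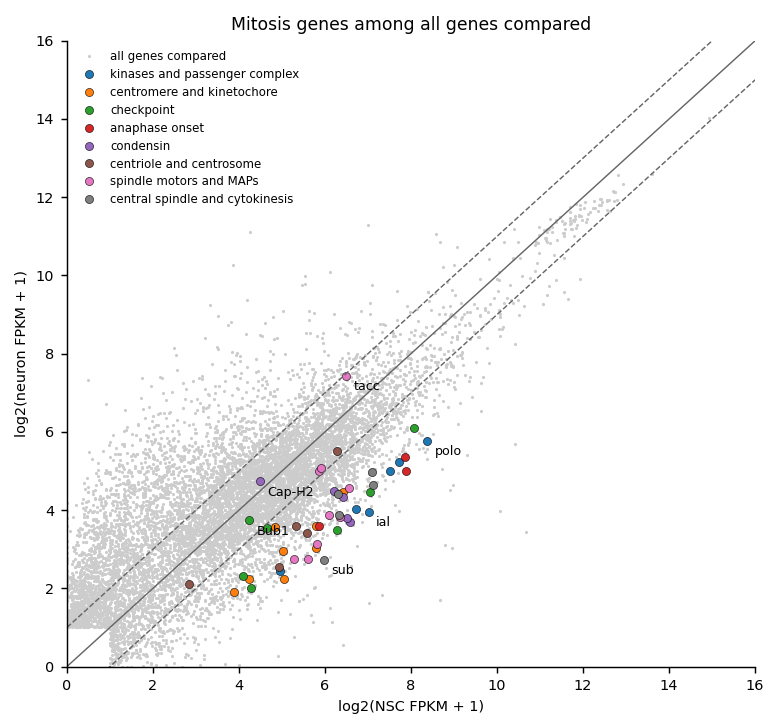
Neuron level against NSC level, both as log2(FPKM + 1), for the 10158 genes compared (grey) and the 48 mitosis genes (coloured by role). The solid line marks equal levels and the dashed lines a 2-fold difference, and 41 coloured points lie below the lower dashed line.

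Of the mitotic kinases and the chromosomal passenger complex, 5 genes had more RNA in NSCs than the median member, and aur had less. All 6 genes were at least 4-fold lower in neurons, with a median change of -2.57 and median levels of 154 FPKM in NSCs against 23.1 FPKM in neurons. polo, the kinase that drives centrosome maturation, kinetochore function and cytokinesis, had the highest NSC level of all members, at 332.6 FPKM, and 53.8 FPKM in neurons (change -2.61). aur, the Aurora A kinase of centrosomes and spindle poles, had 30.1 FPKM in NSCs against 4.41 FPKM in neurons (change -2.52). The kinase pair thus differed about as much in level per length in neurons as in NSCs. ial, the Aurora B kinase that corrects faulty kinetochore attachments, had 128.5 FPKM in NSCs against 14.5 FPKM in neurons. Its change of -3.07 was the second lowest of the members, and its FPKM ratio without the added 1 was 8.89-fold. The scaffold gene Incenp had 180.3 and 31.1 FPKM (change -2.50). borr, which encodes borealin and helps to bring the complex to the centromere, had 208 and 36.7 FPKM (change -2.47). Det, or deterin, the survivin relative of the same complex, had 104.02 and 15.2 FPKM (change -2.70). The 4 passenger complex genes lay within a narrow span of change, from -3.07 to -2.47, and their NSC levels ran from 104.02 to 208 FPKM.

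The centromere and the outer kinetochore were lower in neurons through all 8 genes measured, with a median change of -2.04. Their levels were lower than those of the passenger complex in both libraries, with medians of 31.6 FPKM in NSCs against 6.95 FPKM in neurons. cid encodes the histone variant that marks the centromere, and it had 17.9 FPKM in NSCs against 3.69 FPKM in neurons (change -2.01). Cenp-C, which joins that chromatin to the kinetochore, had 31.4 and 6.76 FPKM (change -2.06). cal1, the chaperone that loads the centromeric histone, had 27.6 and 10.8 FPKM (change -1.28), and at 39.0% of the NSC level it was the least lowered of the 8. The other 5 genes encode the network that binds microtubules. Mis12, which anchors that network, was the lowest member in neurons, at 13.9 FPKM in NSCs against 2.73 FPKM in neurons (change -1.99), and its neuron value rests on about 121 estimated fragments, the fewest of any member. Spc105R, the platform for checkpoint proteins, had 54.6 and 7.13 FPKM (change -2.77). Ndc80, whose product touches the microtubule directly, had 31.9 and 3.71 FPKM (change -2.80). Its partner Nuf2 had 54.1 and 11.0 FPKM (change -2.20). Spc25, from the other end of the same rod-shaped complex, had 84.2 and 21.2 FPKM (change -1.94). Within this one complex, Ndc80 kept 11.7% of its NSC level and Spc25 25.2%, and Spc25 had the higher level of the pair in both libraries.

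The spindle assembly checkpoint was less even. Of its 7 genes, 6 were at least 2-fold lower, and the median change was -1.96. BubR1, a checkpoint protein that restrains the activator of anaphase, had 76.3 FPKM in NSCs against 10.2 FPKM in neurons (change -2.79). mad2, which acts in the same inhibitory complex, had 131 and 21.2 FPKM (change -2.57). Bub3, the partner that tethers the Bub proteins to the kinetochore, had 267.7 and 67.9 FPKM (change -1.96), the second highest NSC level of all members. Against these, Bub1, the kinase that recruits them, had 17.9 FPKM in NSCs against 12.4 FPKM in neurons. Its change of -0.49 was within 2-fold, and a 95% counting interval of its log2 FPKM ratio, which rests on the estimated depth and covers counting error only, ran from -0.59 to -0.46. BubR1 was thus above Bub1 in NSCs and below it in neurons, per length. ald, the Mps1 kinase at the head of the checkpoint, had 15.98 and 3.998 FPKM (change -1.76). rod and mit(1)15, now called Zw10, encode 2 subunits of the complex that brings dynein to kinetochores. rod had 18.3 and 3.02 FPKM (change -2.26), and mit(1)15 had 24.1 and 10.7 FPKM (change -1.10). The latter was the member nearest to the 2-fold line on its lower side.

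Anaphase onset was represented by 3 genes, all at least 4-fold lower, with a median change of -2.51. fzy, the Cdc20 activator of the anaphase-promoting complex, had 234 FPKM in NSCs against 31.1 FPKM in neurons (change -2.87). pim, the securin that is destroyed at that point, had 233 and 40.1 FPKM (change -2.51). In NSCs these genes stood at nearly the same level per length and were exceeded among the members only by polo and Bub3. thr, the regulatory partner of separase, had 57.4 and 11.0 FPKM (change -2.28).

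Condensin compacts chromosomes before they separate, and flies have a mitotic form, condensin I, and a second form. SMC2, an ATPase shared by both, had 94.4 FPKM in NSCs against 12.0 FPKM in neurons (change -2.88). glu, the other ATPase (SMC4), had 89.99 and 12.8 FPKM (change -2.72). Both ATPases therefore had close levels in each library. barr and Cap-G, non-ATPase subunits of condensin I, had 72.9 and 21.3 FPKM (change -1.73) and 83.8 and 19.1 FPKM (change -2.08). Cap-H2, the kleisin of the second form, had 21.6 FPKM in NSCs against 25.6 FPKM in neurons. Its change of 0.23 lay within 2-fold, and the counting interval of its log2 FPKM ratio was 0.19 to 0.30. In NSCs barr, the kleisin of condensin I, was above Cap-H2, and in neurons it was below. The condensin I genes with the ATPases had a median change of -2.40 over 4 genes, and the 5 condensin genes together -2.08.

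**Figure D3:**
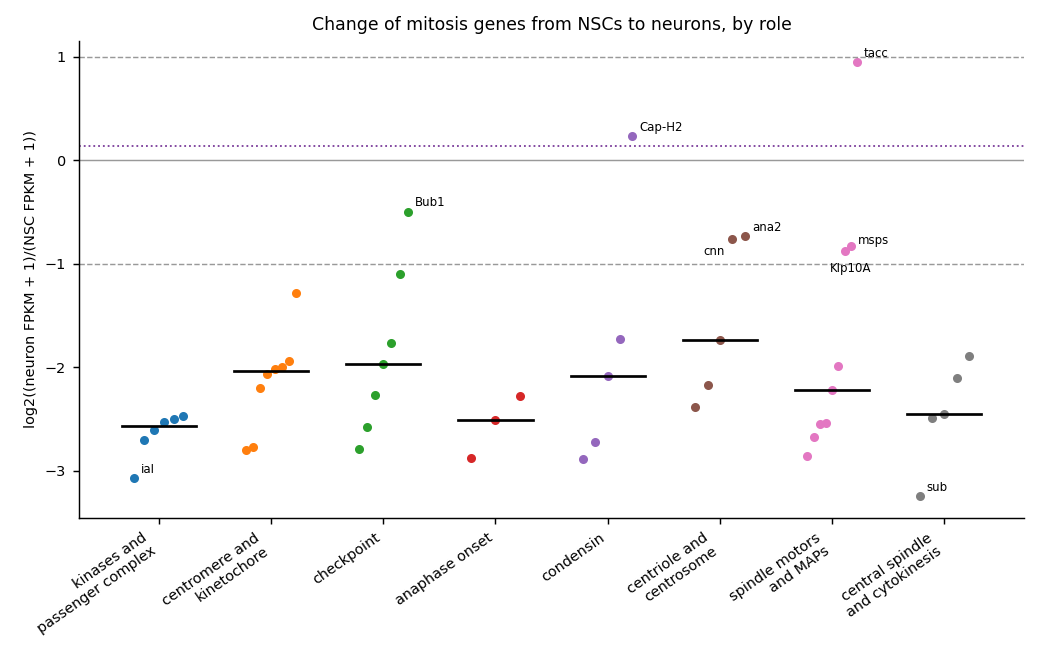
Change of each of the 48 genes, as log2((neuron FPKM + 1)/(NSC FPKM + 1)), by role, with black bars at group medians, dashed lines at 2-fold and a dotted line at the median of all genes compared (0.14). The 7 genes within 2-fold are named, as are ial (-3.07) and sub (-3.25), and the other 39 points lie between the lower dashed line and -3.

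The centriole and centrosome genes had the least negative group median, -1.74, with 3 of 5 genes at least 2-fold lower. SAK, the polo-like kinase that starts centriole duplication, had 39.0 FPKM in NSCs against 11.0 FPKM in neurons (change -1.74). Sas-4, which builds the centriole wall, had 29.3 and 4.81 FPKM (change -2.38). ana2, an early centriole assembly factor, had the lowest NSC level of the members, 6.12 FPKM, and 3.29 FPKM in neurons (change -0.73). The counting interval of its log2 FPKM ratio ran from -1.11 to -0.68 and so includes a 2-fold difference. spd-2 and cnn encode the pericentriolar scaffold that centrosomes gather before mitosis. spd-2 had 47.2 and 9.69 FPKM (change -2.17), whereas cnn had 76.4 and 44.7 FPKM (change -0.76) and kept 58.6% of its NSC level. In NSCs cnn was above spd-2 by less than 2-fold per length, and in neurons by more.

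Spindle motors and microtubule-associated proteins split most widely, with 6 of 9 genes at least 2-fold lower, 3 within 2-fold and a median change of -2.22. Klp61F, the bipolar kinesin that pushes spindle poles apart, had 80.2 FPKM in NSCs against 13.0 FPKM in neurons (change -2.53). ncd, the minus-end-directed kinesin that focuses poles, had 93.5 and 22.8 FPKM (change -1.99). Klp67A, which limits spindle length at microtubule plus ends, had 55.2 and 7.79 FPKM (change -2.68). The chromokinesin Klp3A had 47.4 and 5.70 FPKM (change -2.85). Klp10A, which takes microtubules apart at their ends, stood away from these kinesins, with 57.1 and 30.8 FPKM (change -0.87) and 53.9% of its NSC level kept. In NSCs Klp10A and Klp67A were at nearly the same level per length. asp, the pole-focusing protein whose human relative is a microcephaly gene, had 38.1 and 5.70 FPKM (change -2.55). mars, the fly relative of the spindle protein HURP, had 67.7 and 13.8 FPKM (change -2.22). msps, a microtubule polymerase, had 59.0 and 32.9 FPKM (change -0.83). tacc, the centrosomal partner of msps, had 88.9 FPKM in NSCs against 172 FPKM in neurons, the highest neuron level of any member. Its change of 0.95 lay just inside the 2-fold line, and the counting interval of its log2 FPKM ratio was 0.94 to 0.97.

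Genes of the central spindle and cytokinesis were lower throughout, with 5 of 5 at least 2-fold lower and a median change of -2.45. pav, the kinesin of the centralspindlin complex, had 78.1 FPKM in NSCs against 20.3 FPKM in neurons (change -1.89). tum, the RacGAP that completes that complex, had 134 and 30.6 FPKM (change -2.10). feo, which bundles the antiparallel microtubules of the midzone, had 79.4 and 13.7 FPKM (change -2.45). sub, a second kinesin of the same family as pav that also acts in female meiosis, had 62.1 and 5.65 FPKM. It had the lowest change of the 48 members, -3.25, and the FPKM ratio was 11.0-fold. scra, the anillin that links the contractile ring to the membrane, had 138 and 23.7 FPKM (change -2.49). The kinesins of this group and of the spindle together made up 7 members with a median change of -2.53.

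The 3 listed names that differ from the table by case alone were also at least 2-fold lower in neurons. zwilch, the third subunit of the complex of rod and mit(1)15, had 11.6 FPKM in NSCs against 1.90 FPKM in neurons (change -2.12). CAP-D2, another non-ATPase subunit of condensin I, had 67.9 and 12.8 FPKM (change -2.32). sas-6, which forms the centriole cartwheel, had 17.4 and 2.04 FPKM (change -2.60). Both zwilch and sas-6 were below every member of their role group in neurons, and the change of sas-6 was below that of the 5 centriole and centrosome members. With them counted, a choice made after their values were seen, 44 of 51 genes were at least 2-fold lower and the median change was -2.26.

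The 7 genes within 2-fold were Bub1, Cap-H2, ana2, cnn, Klp10A, msps and tacc. Among them cnn, Klp10A, msps and tacc encode centrosomal or microtubule-end proteins, a grouping made after the values were seen. It does not set the 7 apart. Klp67A (change -2.68), aur (change -2.52) and spd-2 (change -2.17), whose products also act at microtubule ends or centrosomes, were among the 41 lower genes. The median gene model of the 7 was longer and more divided than that of the 41 lower genes, though not each one was. The median span was 7757 bp, with 9 introns and 5 annotated transcripts, compared with 3208 bp, 3 introns and 1 transcript for the 41, and 2702 bp, 3 introns and 2 transcripts for the 9993 genes compared that have a model. Against this order, ana2 spans 1483 bp with 1 intron, Bub1 has 2 introns, and Cap-G, among the 41, spans 9679 bp. The values describe these genes only, and the part of gene structure in the difference was not tested.

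The members are spread over the chromosome arms, with 8 on 2L, 12 on 2R, 9 on 3L, 14 on 3R and 5 on X. Their median change was -2.49, -2.25, -2.53, -1.98 and -2.45 on these arms in turn, so each arm held mostly lower members.

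Exons of 20 members share bases with a gene on the opposite strand, and whether reads were counted by strand is not stated, so reads from the shared bases cannot be assigned. In 8 members the part shared with a single other gene is at least 10% of the exons. How far this makes their values uncertain also depends on the other gene's level, so the shared part sets no upper limit. For sub the shared part was 20.6%, with Ir54a at 0.255 FPKM in NSCs against 0.0368 FPKM in neurons. For SAK it was 18.1%, with M6 at 17.8 and 66.6 FPKM, and for cal1 11.3%, with cher at 11.9 and 157 FPKM. Both partners were below the member in NSCs and above it in neurons, whereas Ir54a was below sub in both. For Klp61F it was 10.95%, with CG9194 at 1.03 and 22.6 FPKM, and for ncd 11.7%, with ca at 5.14 and 20.6 FPKM. The partners of Bub3 (ppk19), mars (drk) and mad2 (CG5537) had 25.4 and 6.61, 144 and 82.0, and 55.3 and 57.0 FPKM. Of the genes within 2-fold, ana2 shares 4.89% of its exons with sec31 (22.7 and 91.5 FPKM), Cap-H2 shares 3.3% with TfIIFbeta (93.0 and 26.1 FPKM) and 8.15% with an antisense RNA, and tacc shares 4.5% with an antisense RNA. The part of these overlaps in the levels was not tested.

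Further genes of cell division, written in 8 lists, were mostly lower too but by less. Of 78 genes compared, 45 (57.7%) were at least 2-fold lower and 2 at least 2-fold higher, beside 16.6% and 26.9% of all genes compared, and the median change was -1.15. The same background shares apply to each list, and several lists hold few genes. Other kinetochore genes came closest to the members, with 8 of 9 at least 2-fold lower and a median of -2.01. The lowest of them was Spindly, an adaptor of dynein at kinetochores, with 44.6 FPKM in NSCs against 5.15 FPKM in neurons (change -2.89). The highest was cana, a kinetochore kinesin of the CENP-E type, with 22.8 and 15.5 FPKM (change -0.53). Genes of the gamma-tubulin ring complex and augmin, which nucleate microtubules, had 13 of 16 at least 2-fold lower and a median of -1.61. The lowest was msd1, an augmin subunit, at 79.1 and 12.6 FPKM (change -2.56), and the highest was gammaTub37C, a gamma-tubulin of the female germline and early embryo, at 4.42 and 3.03 FPKM (change -0.43).

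Of other centriole and centrosome genes 5 of 8 were at least 2-fold lower, with a median of -1.59. Nek2, a centrosomal kinase, had 27.0 FPKM in NSCs against 3.59 FPKM in neurons (change -2.61). cp309, the fly pericentrin-like protein, was at least 2-fold higher in neurons, at 35.3 and 77.0 FPKM (change 1.10). Of other spindle genes 2 of 7 (28.6%) were at least 2-fold lower (median -0.77), from mud, which orients the spindle, at 45.4 and 6.16 FPKM (change -2.69), to Patronin, which protects microtubule minus ends, at 40.6 and 73.3 FPKM (change 0.84).

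Of cohesin genes, separase and Cap-D3, 5 of 10 were at least 2-fold lower, with a median of -0.99. Separase itself (Sse), the protease that cuts cohesin, was the lowest, with 13.5 and 2.36 FPKM (change -2.11), whereas the cohesin loader Nipped-B had 64.7 and 58.0 FPKM (change -0.15). Of the anaphase-promoting complex and its activators and conjugating enzyme, 5 of 12 were at least 2-fold lower, with a median of -0.99. The conjugating enzyme vih had 202 and 81.5 FPKM (change -1.30). The activator rap, also called fzr, which works after mitosis and in cells that have left the cycle, was higher in neurons within 2-fold, at 53.0 and 70.0 FPKM (change 0.40). Per length, the activators thus stood at 234 FPKM (fzy) against 53.0 FPKM (rap) in NSCs and at 31.1 against 70.0 FPKM in neurons.

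Other cytokinesis genes had 5 of 12 at least 2-fold lower, 1 higher and a median of -0.71. The ends of that list are both septins, filament-forming GTPases: Sep5 had 67.1 FPKM in NSCs against 3.95 FPKM in neurons (change -3.78), and Sep4 had 7.20 and 39.1 FPKM (change 2.29). Of the genes of mitotic phosphatase control, 2 of 4 were at least 2-fold lower, from the Greatwall kinase gwl at 61.9 and 14.6 FPKM (change -2.01) to the phosphatase subunit tws at 42.2 and 28.0 FPKM (change -0.57).

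Kinesins that carry cargo gave values on the other side. Of 9 transport kinesin genes, 0 were at least 2-fold lower and 6 at least 2-fold higher in neurons, with a median change of 1.11, beside -2.53 for the 7 mitotic kinesins. The highest was unc-104, the motor of synaptic vesicle precursors, with 4.35 FPKM in NSCs against 24.6 FPKM in neurons (change 2.26). Klc, the kinesin light chain, had 15.7 and 68.4 FPKM (change 2.05). The lowest was Klp31E, at 14.3 and 10.2 FPKM (change -0.45). The median level of the transport kinesins was 11.3 FPKM in NSCs against 24.6 FPKM in neurons, and that of the mitotic kinesins was 62.1 and 13.0 FPKM.

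**Figure D4:**
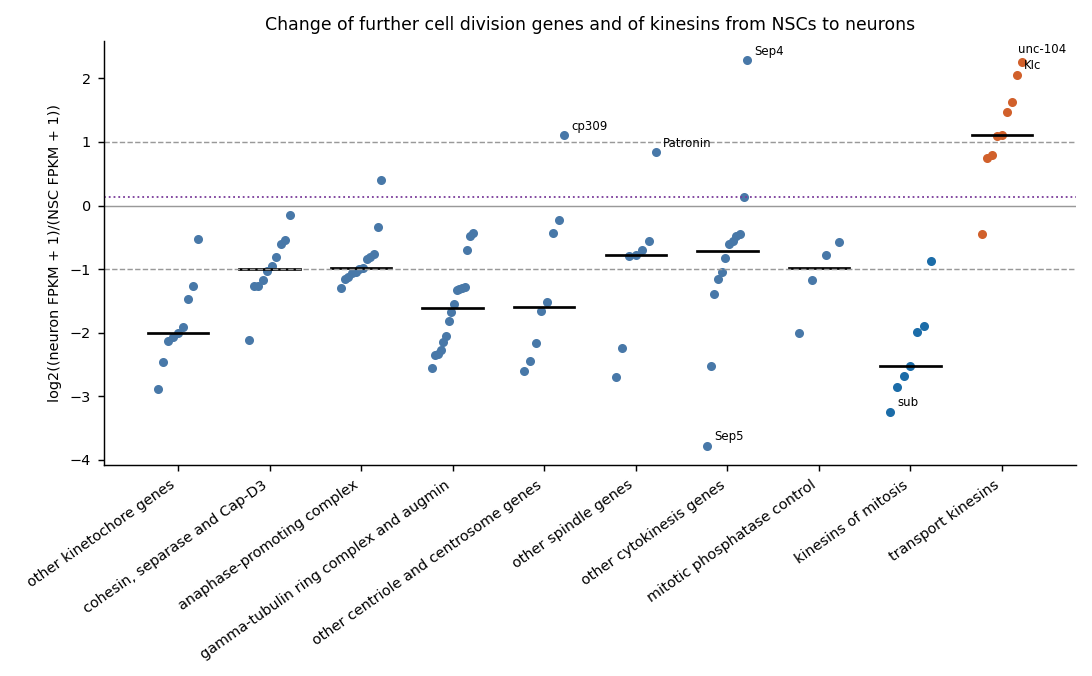
Change of further cell division genes by list, as log2((neuron FPKM + 1)/(NSC FPKM + 1)), beside the 7 mitotic kinesins among the 48 genes and 9 transport kinesins, with black bars at medians, dashed lines at 2-fold and a dotted line at the median of all genes compared (0.14). These 7 mitotic kinesins lie at -0.87 or lower and the transport kinesins at -0.45 or higher, while the kinesins cana (-0.53) and nod (-0.79), shown with their own lists, lie between.

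Markers of the labelled and of other cell types also differed between the libraries. Of 6 neuroblast markers, 2 (dpn and mira) were at least 2-fold lower in neurons and 4 were within 2-fold, of which insc (change 0.53) and grh (change 0.24) were higher, and the sum of the 6 was 277 and 167 FPKM. Of 8 neuron markers, 7 were at least 2-fold higher, and their sum was 73.9 and 510 FPKM. Markers of cells outside the nervous system were present in both libraries and mostly higher in the neuron library. The sums were 117 and 700 FPKM over 6 hemocyte markers, 725 and 3498 FPKM over 6 muscle markers and 138 and 931 FPKM over 6 trachea markers, with 3, 4 and 4 genes at least 2-fold higher. At least 2-fold lower were the muscle marker twi (change -1.09) and the trachea marker btl (change -1.38). The sum of 6 glia markers was 211 and 355 FPKM, with 2 genes at least 2-fold higher. In the direction of the mitosis genes, 3 of 6 germline markers (sum 109 and 66.1 FPKM) and 3 of 6 maternally supplied transcripts (sum 280 and 180 FPKM, median change -0.93) were at least 2-fold lower, whereas the germline marker vas was at least 2-fold higher (6.48 and 15.6 FPKM, change 1.15). These counts rest on few genes and stand beside shares of 16.6% lower and 26.9% higher among all genes compared. None of these markers was at 0 in either library, and the hemocyte marker Hml was the lowest, at 0.614 and 0.491 FPKM. The part of other cells or of maternal RNA in the levels of the mitosis genes was not tested.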

How the data were processed

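Nuclear RNA of 1 NSC and 1 neuron library was sequenced on the Illumina platform. Per the study's methods and the submitters' processing notes, alignment by the authors used TopHat 1.3.1 and Bowtie with the transcripts of FlyBase release 5, and Cuffdiff 1.3.0 took the reads that mapped to a single place. It gave the FPKM that the authors deposited, 1 value per gene and library. Strandedness, read length and read totals are not given in the sources used here. The labels mention crosslinked embryos, whereas the methods describe RNA from embryos without crosslinking. The table repeated its header line before the rows; the 13624 header lines were removed, leaving 13623 genes.

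Count models were not applied, since FPKM are normalized values, and 1 library per group allows no p-value. The change was log2((neuron FPKM + 1)/(NSC FPKM + 1)), with a pseudocount of 1, which understates the change of low genes, over genes that reached 1 FPKM in either library. Depth came from the steps between low FPKM values of genes with 1 annotated transcript, 845 in NSCs and 1160 in neurons. Fragments were FPKM times exonic length less 200 bp, times that depth. The most frequent neuron to NSC ratio (0.939, at 56 of 1133 genes below 0.5 FPKM in both) gave relative depth separately. Intervals of 95% use the fragment estimates and cover counting error only. Symbols were matched to Ensembl release 115 gene models (11036 directly, 2372 by synonym, 215 unmatched); this is another annotation than the authors', so no coordinates are given. Of the 80 further cell division genes listed, 79 were found (vtd was not matched) and 78 compared, since Klp59C was below 1 FPKM in both libraries. Promoter sequences were not analysed here.

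The members and all lists were chosen with earlier results of these data known. Every member found is named. Of each further list of cell division genes and of the transport kinesins, the genes with the highest and lowest change are named, and genes at least 2-fold higher may be. The cell type markers named singly were chosen after their values were seen. A list is described by counts and medians beside those of all genes compared. Alternatives were pseudocounts of 0.1 and 5, scaling to TPM or to the median, and other filters on low values. Scripts were tested on simulated data and run with Python 3.11.15, numpy 2.4.6 and pandas 2.3.3.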

Additional observations from a re-analysis of the deposited data

How the results depend on the processing

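No paired analysis was possible because each group had 1 library and the labels carry no replicate numbers, and for the same reason no library could be left out. The number of members at least 2-fold lower was 41 under every alternative pseudocount, scaling and filter except a pseudocount of 5 and scaling each library to a sum of 1000000 (TPM), where it was 40. The gene lost was mit(1)15 in both, from -1.10 to -0.89 and -0.86. TPM scaling raised every log2 ratio by 0.27 and the median of all genes compared from 0.14 to 0.39, and it counted 1195 genes as lower and 3430 as higher in place of 1684 and 2735. The median of the members was then -2.01, and tacc reached 1.21 and was the 1 member at least 2-fold higher. With a pseudocount of 0.1, the medians of cohesin, separase and Cap-D3 and of the anaphase-promoting complex passed 2-fold, at -1.03 and -1.08 in place of -0.99 for each. With a pseudocount of 5, the median of the transport kinesins was 0.91 in place of 1.11, and that of the members -1.90. The count of further cell division genes at least 2-fold lower, 45, was 36 with TPM scaling, 38 with a pseudocount of 5 and 48 with 0.1. The share of all genes compared that were at least 2-fold lower, 16.6%, was 11.8%, 11.8% and 18.9% under these settings in turn. No direction of a member reversed under these settings. Each neuron value of a member rests on at least 121 estimated fragments.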
